A study of Mus musculus with 6 samples.

Results

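Epidermal kallikreins and their inhibitors were followed as a list of 10 genes given by symbol, Klk5, Klk6, Klk7, Klk8, Klk10, Klk11, Klk13, Klk14, Spink5 and Cst6, of which 9 were among the 14484 genes measured. These were 7 kallikreins and the inhibitors Spink5 and Cst6, and Klk14 was not analysed here. The samples were 6 RNA-seq libraries of mouse skin on a C57BL/6-129J background. The 3 ATR WT libraries came from animals labelled ATR +/+; Braf CA/+; Cre +, and the 3 ATR mD/mD libraries from animals labelled ATR fl/fl; Braf CA/+; Cre +, in which part of the kinase domain of ATR was removed. Both groups therefore carried the Braf CA allele and Cre, and no group without them was measured. The series calls the samples nevi, benign growths of pigment cells, whereas the labels give skin as the tissue. The labels do not name the promoter that drives Cre, nor the age, the body site or the stage of the hair cycle. Whether each sample is a separate animal is not stated either, so p-values measure only the spread between these samples.

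Kallikreins are secreted serine proteases that are made as inactive precursors. In the epidermis they are released by keratinocytes of the granular layer, where they activate each other and cut the desmosomal proteins that hold dead cells at the skin surface, so that those cells can be shed. Spink5 encodes LEKTI, a chain of inhibitor domains that holds KLK5, KLK7 and KLK14 in check, and its loss causes Netherton syndrome. Cst6 encodes cystatin M/E, which inhibits another class of enzymes, the cysteine proteases cathepsin L, cathepsin V and legumain, and is needed for normal cornification and hair follicles in mice.

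The kallikrein genes lie side by side on chromosome 7 (mm10), all on the plus strand. From Klk14 onward, the start of Klk13 lies 22.1 kb away, followed by Klk11 (84.2 kb), Klk10 (90.6 kb), Klk8 (107 kb), Klk7 (121 kb), Klk6 (134 kb) and Klk5 (152 kb). Klk5 spans 43841971 to 43851181 and Klk7 spans 43811294 to 43816359. An exon of Klk8 overlaps an antisense gene, 2310002F09Rik, and the library kit does not mark the strand, so reads of that stretch cannot be assigned to one of the genes. Kallikreins are also close relatives, and reads shared among copies could make their counts uncertain.

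The stretches just before the start sites of 5 of these genes are shown because these kallikreins separated the libraries by their hair gene level without overlap, 3 in one direction and 2 in the other (values below). They come from RefSeq (GRCm38.p6), up to 250 bases before the RefSeq start, cut where an annotated exon of the gene itself lies, 5′ to 3′ on the plus strand. For Klk5 the RefSeq start lies downstream of the GENCODE start given above, so its stretch is inside the gene by GENCODE. It lies between the first exon and the next exon of the only Klk5 transcript in the basic GENCODE set. Capitals mark matches to 2 motifs, the TCF/LEF core CTTTGT and the KLF motif GGGTGNGG, on either strand.
Klk6, chr7:43824294-43824498: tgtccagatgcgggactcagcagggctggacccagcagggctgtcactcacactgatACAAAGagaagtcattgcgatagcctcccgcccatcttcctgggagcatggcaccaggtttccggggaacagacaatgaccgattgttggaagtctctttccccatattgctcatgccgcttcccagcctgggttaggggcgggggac
Klk10, chr7:43780804-43781034: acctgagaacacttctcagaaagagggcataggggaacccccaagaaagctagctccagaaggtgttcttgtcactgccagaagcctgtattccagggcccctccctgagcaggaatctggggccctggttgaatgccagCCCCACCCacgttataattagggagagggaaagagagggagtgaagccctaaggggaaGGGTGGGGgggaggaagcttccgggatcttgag
Klk13, chr7:43712317-43712566: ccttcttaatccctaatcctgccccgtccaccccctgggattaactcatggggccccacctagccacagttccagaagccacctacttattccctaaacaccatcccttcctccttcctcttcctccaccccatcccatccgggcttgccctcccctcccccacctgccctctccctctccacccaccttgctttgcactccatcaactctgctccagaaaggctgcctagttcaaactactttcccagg
Klk5, chr7:43842068-43842268: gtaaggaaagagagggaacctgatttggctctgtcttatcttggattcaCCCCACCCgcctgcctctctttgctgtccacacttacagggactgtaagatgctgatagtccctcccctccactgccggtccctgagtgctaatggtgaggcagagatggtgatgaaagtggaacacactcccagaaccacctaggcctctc
Klk11, chr7:43774367-43774603: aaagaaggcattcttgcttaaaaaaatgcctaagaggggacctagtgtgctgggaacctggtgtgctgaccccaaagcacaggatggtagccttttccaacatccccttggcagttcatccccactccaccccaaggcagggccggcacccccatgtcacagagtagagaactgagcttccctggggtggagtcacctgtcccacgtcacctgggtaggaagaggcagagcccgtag

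RefSeq gives 10 such windows of 250 bases for the 8 listed kallikreins, since Klk6 and Klk11 have 2 starts each, and 5 motifs were searched in them on both strands. The KLF motif was in 3 of the 10 windows (Klk5, Klk10 with 2 matches, and Klk14) and in 14.9% of all 32851 windows. The TCF/LEF core was in 2 of the 10 (1 start of Klk6 and 1 of Klk11) and in 16.5% of all windows. The Klk11 match is in the window of its other start, and the Klk11 stretch shown holds no match. The TATA box, searched as TATAAA, was in 0 of the 10 and in 12.4% of all windows. The motif of the AP-1 factors, searched as TGANTCA, was in 0 of the 10 and in 6.75% of all windows. The grainyhead motif, searched as AACNNGTT, was in 0 of the 10 and in 3.64% of all windows. The KLF motif was thus found in the windows of both Klk10, higher in hair-rich libraries, and Klk5, higher in hair-poor ones. A match is a match of letters only and was not tested as a binding site.

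Each library held between 34723600 and 46847751 gene counts. The libraries differed widely in hair genes, and that division did not follow genotype. The mean of 30 hair shaft and inner root sheath genes was 1.48 log2 CPM (counts scaled to a common library size) in ATR WT 1, with -0.61 and 1.84 for ATR mD/mD 1 and 2. It was 6.78 and 7.09 in ATR WT 2 and 3, with 7.03 for ATR mD/mD 3. The last 3 are called the hair-rich libraries and the other 3 the hair-poor libraries below. These names come from the data and not from the labels, so no test is given between them. Atr, the targeted gene, averaged 22.1 ± 3.87 CPM for ATR WT against 22.6 ± 2.00 for ATR mD/mD (SD, n = 3). Its whole-gene count includes exons outside the deleted part and does not check the deletion. The labelled tissue was checked by its keratinocyte genes: Krt5 ranged from 3616 to 5360 CPM and Krt10 from 2660 to 6312 CPM. The mean of 10 melanocyte markers was 5.10 to 5.72 log2 CPM in the hair-rich and 2.82 to 3.46 in the hair-poor libraries.

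Klk7 and Cst6 were the most abundant members per length of transcript, and Klk13 was the scarcest. As mean CPM per kilobase of annotated exon (the basic GENCODE transcripts) over the 6 libraries, Cst6 stood at 335, Klk7 at 187, Klk5 at 73.5, Spink5 at 69.1, Klk10 at 42.4, Klk6 at 32.2, Klk8 at 29.4, Klk11 at 20.2 and Klk13 at 0.833. The value of Cst6 rests on a single annotated transcript of 3951 bases, and a shorter one would raise it. Cst6 was the highest member in 5 of 6 libraries on this scale, ranging from 154 to 712, and Klk7 ranged from 155 to 225. The ranges of Cst6 and Klk7 thus overlapped, as did those of Klk5 (37.2 to 124) and Spink5 (46.8 to 100.2), and those of Klk10 (10.04 to 65.01), Klk6 (8.09 to 82.6), Klk8 (21.99 to 35.0) and Klk11 (15.5 to 24.9). Klk13, between 0.174 and 2.18, lay below all others. Its raw counts were 15, 65 and 114 for ATR WT 1 to 3, against 11, 21 and 138 for ATR mD/mD 1 to 3.

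**Figure D1:**
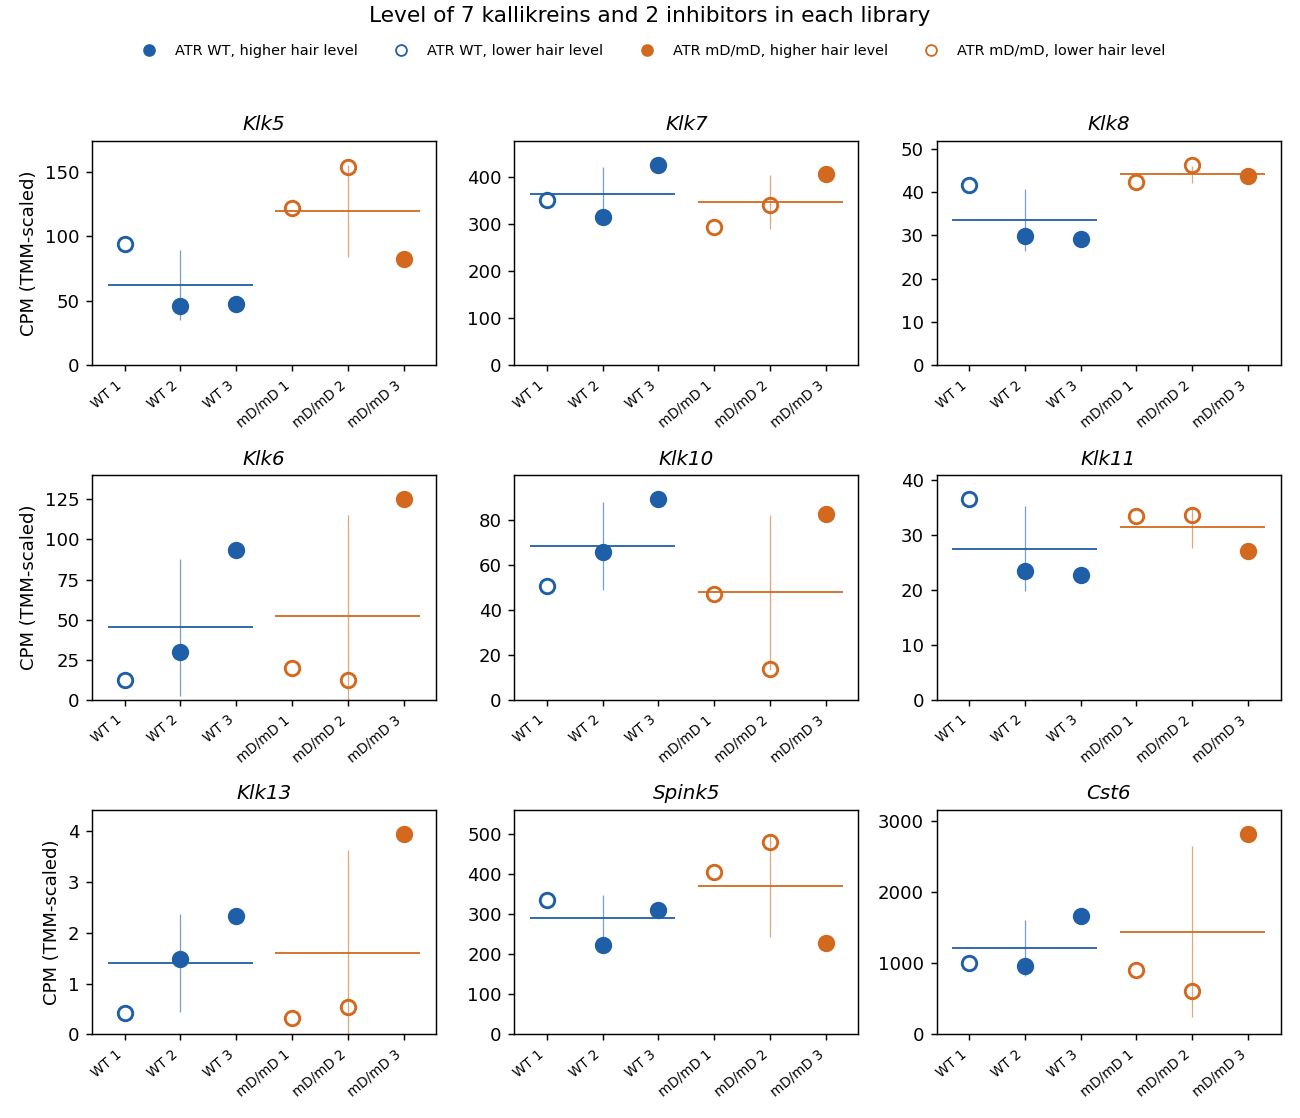
CPM of each member (y axes, linear from 0) in the 3 ATR WT and 3 ATR mD/mD libraries, with filled points for hair-rich and open points for hair-poor libraries; horizontal lines are group means and vertical lines 1 SD, cut at 0. Klk5 lay between 46.1 and 93.9 CPM for ATR WT and between 82.4 and 154 CPM for ATR mD/mD, and Klk8 is the member whose groups did not overlap.

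No kallikrein or inhibitor passed the test between genotypes. The test was edgeR's quasi-likelihood test over all genes, with a threshold of 0.05 on the Benjamini-Hochberg adjusted p, and it called 0 of the 9 members against 0.0483% of all genes. At an unadjusted p under 0.05 it gave 1 member, Klk5, where 1.66% of all genes reached that level. That count rested on single libraries. It was 3 when ATR WT 1 was left out and 2 when ATR mD/mD 3 was. Leaving out any of the other 4 libraries gave 0. Over all genes the number at that level changed in the same direction. It was 240 with all libraries, 529 in the fit with 3 members and 1016 in the fit with 2. In the other 4 fits it was 147 to 207. Klk5 was above 0.05 in those 4 fits, with an unadjusted p of 0.0776 to 0.12 (edgeR quasi-likelihood). By the adjusted p, DESeq2, limma-voom and edgeR's exact test also called 0 members, against 0.27%, 0.0483% and 0.173% of all genes. At an unadjusted p under 0.05 they gave 1, 2 and 1 members, against 2.08%, 1.78% and 1.26% of all genes. Of all genes, 0.566% reached an unadjusted p under 0.05 with ATR mD/mD higher, the direction of Klk5. Log2 fold changes of ATR mD/mD against ATR WT were positive for 7 members and negative for Klk7 and Klk10, and 52% of all genes were positive. Their median was 0.21, against 0.01 over all genes.

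Klk5 encodes a trypsin-like kallikrein that activates its own precursor and that of KLK7, and is seen as a starter of the cascade. Its CPM was 93.9, 46.1 and 47.5 across ATR WT 1 to 3, against 122, 154 and 82.4 across ATR mD/mD 1 to 3. The 2 hair-poor ATR mD/mD libraries were the highest, the 2 hair-rich ATR WT libraries the lowest, and the groups overlapped through ATR WT 1 and ATR mD/mD 3. The log2 fold change was 0.94 (SE 0.356), a fold of 1.91, with an adjusted p of 0.9999 (edgeR quasi-likelihood) and an unadjusted one of 0.036. Among the hair-poor libraries, both ATR mD/mD values were above ATR WT 1, by 0.55 in mean log2 CPM. Among the hair-rich libraries, ATR mD/mD 3 was above both ATR WT values, by 0.82. Such an order within both hair levels was found for 2 members, Klk5 and Klk8, and for 10.7% of all genes. With the hair level as a covariate the log2 fold change was 0.68 (SE 0.204), and with the mean of 16 suprabasal keratinocyte markers as a covariate it was 0.90 (SE 0.203), each short of the threshold with an adjusted p of 0.994 and 0.9999 (edgeR quasi-likelihood). These fits called 0 members, against 0.069% and 0.0552% of all genes. At an unadjusted p under 0.05 they gave 1 and 2 members, against 4.38% and 1.95% of all genes. Klk5 was among them in both fits, and Klk8 in the fit with the suprabasal markers. The suprabasal markers themselves averaged 7.95 to 8.55 log2 CPM for ATR WT, and for ATR mD/mD 8.15 to 8.28. In bulk skin, more cells of a type and more RNA per cell cannot be told apart.

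Klk7 encodes the chymotrypsin-like kallikrein that cuts corneodesmosin, and it was the steadiest member. The 3 ATR WT libraries had 351, 315 and 425 CPM, and the 3 ATR mD/mD libraries 293, 341 and 406. The highest library was 1.45 times the lowest, and neither genotype nor hair level separated the values. On the log2 scale ATR mD/mD differed from ATR WT by -0.07 (SE 0.191), with an edgeR quasi-likelihood adjusted p of 0.9999. Of all genes, 62.1% varied as much or more across the 6 libraries by the SD of log2 CPM.

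Klk8 encodes neuropsin, a trypsin-like kallikrein of the upper epidermis and the brain. In ATR WT 1 to 3 it was at 41.7, 29.9 and 29.1 CPM, and ATR mD/mD 1 to 3 had 42.4, 46.3 and 43.8. Every ATR mD/mD library was above every ATR WT library, although ATR WT 1 and ATR mD/mD 1 were close. ATR WT averaged 33.5 ± 7.07 CPM and ATR mD/mD 44.1 ± 1.96 (SD, n = 3). The log2 fold change of 0.40 (SE 0.172) had an adjusted p of 0.9999 by edgeR's quasi-likelihood test. Klk8 was the 1 member whose groups did not overlap, and 4.84% of all genes showed no overlap, 2.26% with ATR mD/mD higher. Klk11, another trypsin-like member, had the profile closest to Klk8 among the members, with a root mean square difference of 0.15 between their centred log2 CPM values. Klk11 had 36.5, 23.5 and 22.7 CPM across ATR WT 1 to 3, against 33.5, 33.7 and 27.1 across ATR mD/mD 1 to 3, with a log2 fold change of 0.19 (SE 0.222) that was 0.041 with the hair level as a covariate. The difference between these neighbours in pattern lay in ATR mD/mD 3, which for Klk8 was with the hair-poor libraries and for Klk11 nearer the hair-rich ones.

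**Figure D2:**
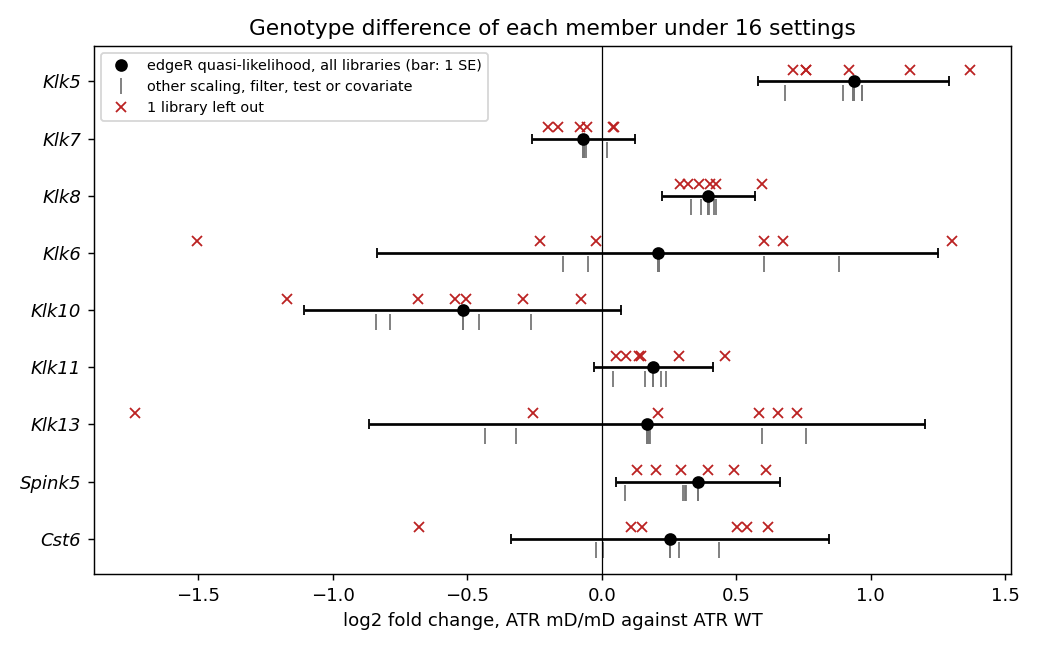
Log2 fold change of ATR mD/mD against ATR WT (x axis) for each member: circles with bars are the edgeR quasi-likelihood value and 1 SE, ticks other scalings, filters, tests and covariates, and crosses the fits with 1 library left out. Klk5, Klk8, Klk11 and Spink5 stayed above 0 and Klk10 below 0 in all of them, whereas Klk6 ran from -1.50 to 1.30.

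Of the 9 members, 6 separated the hair-rich from the hair-poor libraries without overlap, in opposite directions. Klk6, Klk10 and Klk13 were higher in all 3 hair-rich libraries, and Klk5, Klk11 and Spink5 were higher in all 3 hair-poor libraries. The background is high: 36.7% of all genes showed no overlap in this division, 19.6% with hair-rich higher and 17.1% with hair-poor higher. Since the hair level was itself measured from these libraries, the values are a description.

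Klk6 encodes neurosin, a trypsin-like kallikrein best known from the nervous system. It stood at 29.6, 93.7 and 125 CPM in the hair-rich libraries ATR WT 2 and 3 and ATR mD/mD 3, and at 12.5, 19.7 and 12.2 CPM in the hair-poor libraries ATR WT 1 and ATR mD/mD 1 and 2. Both genotypes showed the same order, with mean log2 CPM higher at the higher hair level by 2.06 for ATR WT and by 3.00 for ATR mD/mD. The highest library was 10.2 times the lowest, and 1.93% of all genes varied as much or more. Within the hair-rich libraries Klk6 still differed by a wide margin, since ATR WT 2 was far below ATR WT 3 although their hair levels were close. The genotype difference was small against that spread (log2 fold change 0.21, SE 1.04).

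Klk13 encodes another trypsin-like member of the family, and Klk6 was the member closest to it in profile, with a root mean square difference of 0.51. Its level was 1.49, 2.33 and 3.95 CPM in ATR WT 2 and 3 and ATR mD/mD 3, against 0.414, 0.315 and 0.533 CPM in ATR WT 1 and ATR mD/mD 1 and 2. The lowest hair-rich value was 2.80 times the highest hair-poor value, the widest gap among the 9 members. The genotype log2 fold change was 0.17 (SE 1.03).

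Klk10 encodes a secreted member of the family, and 1 library set its range. It stood at 65.9, 89.3 and 82.9 CPM in the hair-rich libraries ATR WT 2 and 3 and ATR mD/mD 3, and at 50.5, 47.2 and 13.8 CPM in the hair-poor libraries ATR WT 1 and ATR mD/mD 1 and 2. ATR mD/mD 2 was thus far below the other hair-poor libraries, and the lowest hair-rich value was 1.30 times the highest hair-poor one. The genotype log2 fold change was -0.52 (SE 0.589), -0.08 without ATR mD/mD 2 and, leaving out ATR mD/mD 3 in its place, -1.17.

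**Figure D3:**
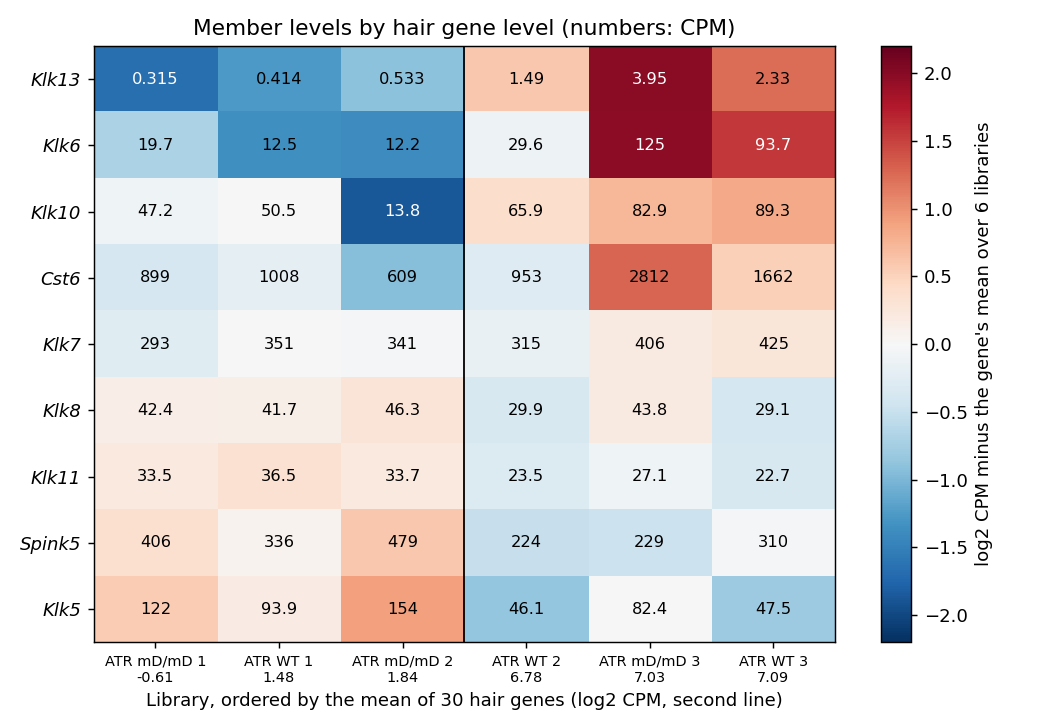
Members (rows) in the libraries ordered by the mean of 30 hair genes (columns, hair level in log2 CPM under each name); colour is log2 CPM minus the gene's own mean, printed numbers are CPM, and the line divides hair-poor from hair-rich libraries. Klk13, Klk6 and Klk10 are higher right of the line, Klk11, Spink5 and Klk5 are higher left of it, and Klk7, Klk8 and Cst6 overlap across it.

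Position in the cluster did not sort the members by direction. Klk6, higher in hair-rich libraries, starts 134 kb from the start of Klk14, between Klk7, which overlapped, at 121 kb and Klk5, higher in hair-poor libraries, at 152 kb. Klk10 and Klk11 start 90.6 and 84.2 kb along the cluster and went in opposite directions. Klk9, the only one of 18 other kallikrein genes that was measured, lies between Klk10 and Klk8. Klk9 averaged 13.0 ± 4.63 CPM for ATR WT against 9.82 ± 1.18 for ATR mD/mD (SD, n = 3), a log2 difference of -0.40 (SE 0.276), and was not called. Its highest value, 18.3 CPM, was in ATR WT 1, and the other 5 libraries lay between 8.53 and 10.8 CPM.

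**Figure D4:**
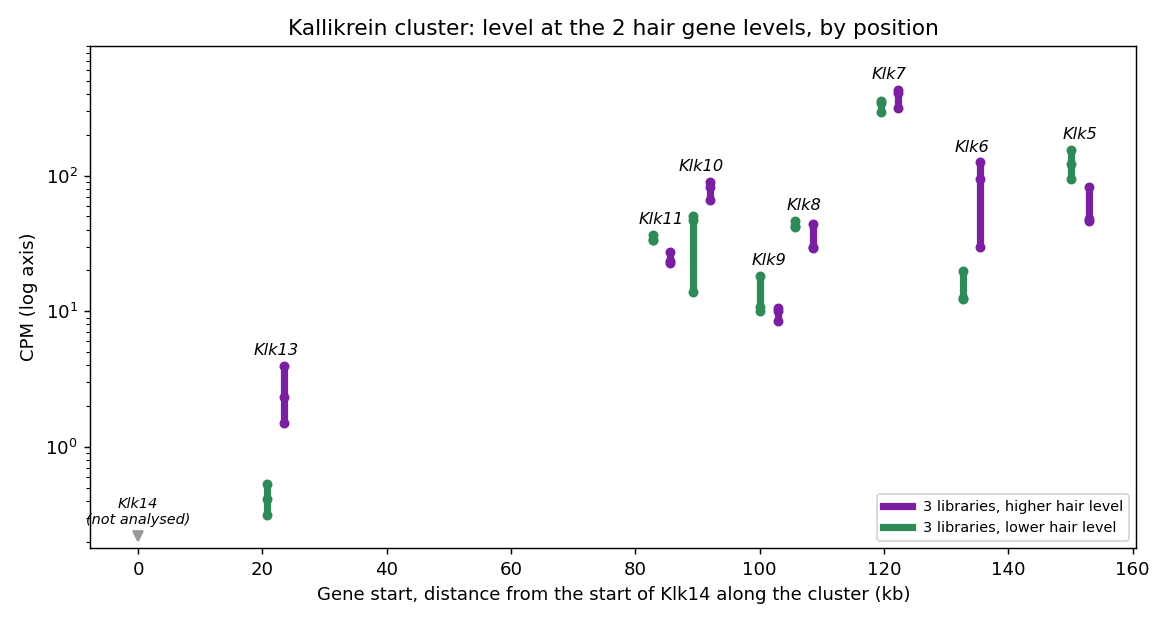
CPM on a log axis (y) of the kallikrein genes by the distance of their start from the start of Klk14 (x, kb), with bars for the range and points for the single libraries of the 3 hair-rich (purple) and 3 hair-poor (green) samples. Neighbours such as Klk10 and Klk11, or Klk6 and Klk5, are apart in opposite directions; Klk14 was not analysed.

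Among the inhibitors, Spink5 shared the direction of Klk5 and Klk11 across the hair division, and Cst6 did not. Spink5 lies on chromosome 18 (43963235 to 44022501, plus strand) and Cst6 on chromosome 19 (5344705 to 5349574, minus strand). Spink5 was at 336, 224 and 309.9 CPM across ATR WT 1 to 3, against 406, 479 and 229 across ATR mD/mD 1 to 3. All 3 hair-poor libraries were above all 3 hair-rich ones, with a narrow gap of 1.08 times between ATR WT 1 and ATR WT 3. The genotype log2 fold change was 0.36 (SE 0.305), adjusted p 0.9999 by edgeR quasi-likelihood, and 0.09 (SE 0.248) with the hair level as a covariate. Cst6 was at 1008, 953 and 1662 CPM across ATR WT 1 to 3, against 899, 609 and 2812 across ATR mD/mD 1 to 3. ATR mD/mD 3 and ATR WT 3, both hair-rich, were the highest, but the hair-rich ATR WT 2 lay just below the hair-poor ATR WT 1. Its log2 fold change was 0.25 (SE 0.591), and -0.68 without ATR mD/mD 3.

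The ratio of kallikreins to Spink5 separated the hair-rich from the hair-poor libraries, whereas the kallikrein sum alone overlapped between them. The 7 kallikreins summed to 587, 511 and 709.97 CPM across ATR WT 1 to 3, and to 559, 601 and 771 across ATR mD/mD 1 to 3, and Klk7 was the largest term. The share of Klk7 in the sum was 59.8% to 61.6% for ATR WT and 52.5% to 56.7% for ATR mD/mD, without overlap. This share was picked after its values were seen, the other 6 kallikrein shares overlapped, and 2.38% of all genes had a ratio to the kallikrein sum without overlap, 2.12% with ATR mD/mD lower. Divided by Spink5, the sum gave 2.28, 2.29 and 3.37 in ATR WT 2 and 3 and ATR mD/mD 3, against 1.75, 1.37 and 1.25 in ATR WT 1 and ATR mD/mD 1 and 2. Every hair-rich library was above every hair-poor one, and the genotypes overlapped. Spink5, the divisor, was itself lower in every hair-rich library. Taken singly, 4 of the 7 kallikreins (Klk6, Klk7, Klk10 and Klk13) had a higher ratio to Spink5 in all hair-rich libraries, as did 54.8% of all genes.

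The ratio of Klk5 to Spink5, picked after its values were seen, followed genotype instead. It was 0.279, 0.206 and 0.153 across ATR WT 1 to 3, against 0.301, 0.321 and 0.360 across ATR mD/mD 1 to 3. All ATR mD/mD libraries were above all ATR WT libraries, with ATR WT 1 close to ATR mD/mD 1. Of the 7 kallikreins this held for Klk5 alone, and among all genes the ratio to Spink5 was higher in ATR mD/mD without overlap for 0.131%. That share cannot tell how unusual the Klk5 ratio is, because the ratio was picked from several. Spink5 also divided the libraries by hair level, and 54.8% of all genes had a higher ratio to it in all hair-rich libraries. No p is given for this ratio, and 3 against 3 libraries could not give less than 0.1 in a two-sided exact permutation test.

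**Figure D5:**
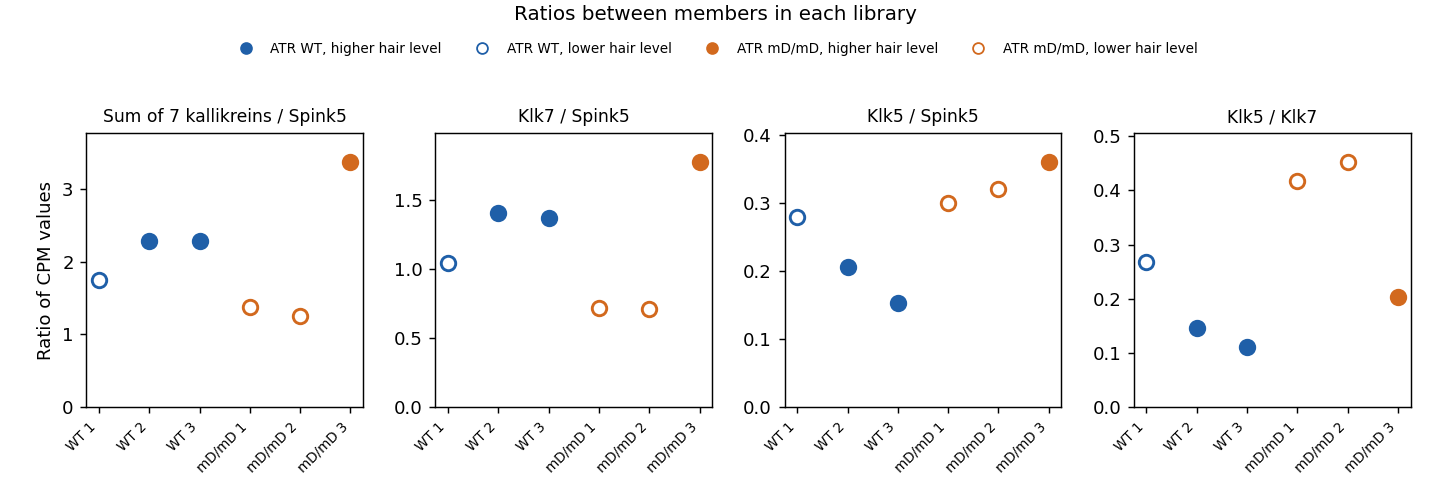
Ratios of CPM values (y axes, linear from 0) in each library, filled points for hair-rich and open points for hair-poor libraries. The kallikrein sum over Spink5 is highest in the hair-rich libraries (2.28 to 3.37), and Klk5 over Spink5 is highest in ATR mD/mD (0.301 to 0.360).

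Markers of some other cell types also differed across the hair division, and their part in these results was not tested. For comparison, 17.1% of all genes were higher in all hair-poor libraries and 19.6% in all hair-rich ones. All 8 skeletal muscle markers were higher in the hair-poor libraries, where they averaged 11.1 to 11.7 log2 CPM against 9.66 to 10.4 in the hair-rich ones. Of 16 suprabasal markers 10 were higher in hair-poor and 4 in hair-rich libraries without overlap, and their mean was 8.18 to 8.55 against 7.95 to 8.15 log2 CPM. Of 8 endothelial markers 7 were higher in all hair-poor libraries, and their mean was 5.41 to 5.59 against 5.06 to 5.12 log2 CPM. Of 10 melanocyte markers 9 were higher in all hair-rich libraries and 0 in all hair-poor ones. Of 10 basal keratinocyte markers 5 were higher in hair-poor libraries and 0 in hair-rich ones. For adipocytes 3 of 8 markers, and for immune cells 2 of 10, were higher in all hair-poor libraries and 0 in all hair-rich ones, and 1 of 8 fibroblast markers was higher in all hair-rich libraries. Of 10 sebaceous gland markers 2 were higher in hair-poor and 1 in hair-rich libraries without overlap. The counts for immune, fibroblast and sebaceous gland markers were thus near or below the shares of all genes. Krt10, the keratin of differentiating epidermis, shared the direction of Klk5, Klk11 and Spink5, with 4824 to 6312 CPM in hair-poor and 2660 to 3142 CPM in hair-rich libraries. Cnfn, among the 4 suprabasal markers that went the other way, had 50.8 to 79.1 CPM in hair-poor and 104 to 130 CPM in hair-rich libraries.

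The other genes of the pathway gave no call between genotypes either. Among other serine proteases of the epidermis, 14 of 17 listed genes were measured, 6 with a positive and 8 with a negative log2 fold change (median -0.05). St14 encodes matriptase, a membrane protease that can activate kallikrein precursors. St14 had 82.3, 135 and 139 CPM across ATR WT 1 to 3, against 84.9, 81.2 and 214 across ATR mD/mD 1 to 3, so it was higher in all hair-rich libraries, like Klk6. Prss8, a membrane-anchored partner of matriptase, and the secreted protease gene Htra1 differed on the log2 scale by -0.20 (SE 0.137) and by -0.18 (SE 0.127). Htra1 was lower in every ATR mD/mD library, at 247 to 272 CPM against 283 to 307 CPM. Among all 14484 genes, 374 were lower in ATR mD/mD without overlap, and Htra1 was 1 of the 14 here.

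Among other serine protease inhibitors, 16 of 21 listed genes were measured, 9 positive and 7 negative (median 0.02). Spint1, which encodes the inhibitor of matriptase, averaged 53.6 ± 11.7 CPM for ATR WT against 37.0 ± 14.5 for ATR mD/mD (SD, n = 3), a log2 difference of -0.54 (SE 0.335). Like St14 it was higher in all hair-rich libraries. Serpinb6a was higher in all hair-poor libraries, at 460 to 631 CPM against 288 to 344 CPM, and Serpinb5 and Serpinb8 overlapped.

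Among cysteine proteases and other cystatins, the class that Cst6 acts on and belongs to, 15 of 18 listed genes were measured, 4 positive and 11 negative (median -0.11). Ctsb, encoding cathepsin B, stood at 898 to 1650 CPM, and its log2 fold change was -0.11 (SE 0.328). Cst3, encoding cystatin C, averaged 791 ± 207 CPM for ATR WT against 762 ± 58.1 for ATR mD/mD (SD, n = 3). Unlike Cst6 it was higher in all hair-poor libraries. The stefin-type genes BC100530 and Stfa3 were scarce and peaked in ATR WT 3, at 25.4 and 13.0 CPM.

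Among substrates of the cornified layer, 14 of 16 listed genes were measured, 7 positive and 7 negative (median -0.03). Dsg1a, a desmoglein that kallikreins cut, averaged 558 ± 99.02 CPM for ATR WT against 649 ± 158 for ATR mD/mD (SD, n = 3) and was higher in all hair-poor libraries, as was Klk5. Dsp, encoding desmoplakin, had a log2 fold change of 0.01 (SE 0.24) and Ppl, encoding periplakin, 0.27 (SE 0.196). Tgm5, a transglutaminase of the cornified layer, had the smallest p of the list. Its CPM was 31.4, 31.0 and 33.1 across ATR WT 1 to 3, against 16.8, 20.1 and 16.1 across ATR mD/mD 1 to 3, with no overlap. The log2 difference was -0.85 (SE 0.137), with an adjusted p of 0.493 (edgeR quasi-likelihood), short of the threshold.

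For signalling and lipid enzymes that kallikreins act on, 8 of 10 listed genes were measured, 3 positive and 5 negative (median -0.07). F2rl1 encodes PAR2, the receptor that KLK5 and KLK14 activate by cleavage. F2rl1 averaged 45.5 ± 11.1 CPM for ATR WT against 36.8 ± 4.59 for ATR mD/mD (SD, n = 3), a log2 difference of -0.30 (SE 0.204). Il1b, an inflammatory cytokine gene, had -0.89 (SE 0.421). Smpd1, which encodes a lipid-processing enzyme that makes ceramides, had -0.04 (SE 0.147).

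The genes most like each member were found by the smallest root mean square difference of log2 CPM, centred on each gene's mean, over the 6 libraries, as a description without a test. Slpi, a secreted serine protease inhibitor, was closest to Klk6 (0.26), at 3.75, 6.92 and 10.96 CPM in the hair-rich libraries ATR WT 2 and 3 and ATR mD/mD 3 and 1.09 to 1.94 CPM in the hair-poor libraries. Slc5a5, Bnc1 and Myb were closest to Klk13 (0.20, 0.21 and 0.25). Krt17, a keratin of hair follicles and stressed epidermis, was the second closest to Cst6 (0.22), at 963 to 3670 CPM. Hal, the epidermal histidase gene, was the second closest to Klk8 (0.06), at 139 to 234 CPM. Scgb1a1, a secretoglobin gene, was closest to Klk5 (0.15) and Irx3, a homeobox gene, was second for Spink5 (0.09). None of the 3 closest genes of any member was on the hair list. The difference used depends on how strongly a gene varies, so it cannot tell whether a member followed the hair genes in direction. The hair genes Krt71 and Tchh had an SD of 4.44 and 4.07 log2 CPM over the libraries, against 1.45 for Klk6, the most variable member.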

How the data were processed

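RNA of mouse skin was selected with oligo dT beads and made into TruSeq RNA v2 libraries, per the labels' protocols; this kit does not mark the strand. FastQC, TopHat2 2.0.12, edgeR and build mm10 are named in the submitters' processing notes; the sources used here do not name the read counter, the annotation or a filter. The authors deposited whole-number read counts per gene, and beside them their own log2 fold change, average log2 CPM, p-value and adjusted p-value, per the file headers; only the counts were used. The 2 rows naming no gene (4.93% to 5.72% of a library's counts) were left out. The lowest gene total was 171 counts.

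Groups came from the labels. TMM factors ran from 0.923 to 1.04, and tests used edgeR 4.0.16 in R 4.3.3, quasi-likelihood, over 14484 genes, with Benjamini-Hochberg adjustment. The SE is the absolute log2 fold change over the square root of the F statistic. Alternatives were DESeq2 1.42.0, limma-voom (limma 3.58.1), the exact test, RLE scaling, filters, covariates, a block and leaving out each library. Scripts were tested on simulated data. No 2 libraries of a group agreed within sampling noise. Gene positions come from GENCODE M21, and exon lengths from its basic transcripts. Genes named beside the members were taken from, for each related list, the 2 with the smallest p and the 2 with the highest mean CPM, the 3 most like each member, and Atr. The result of 1 gene is not reported here. The members and lists were chosen with earlier results of these data known.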

Additional observations from a re-analysis of the deposited data

How the results depend on the processing

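No alternative called a member, and of 135 member values under alternatives 121 kept their direction and 14 reversed. The fits with no filter and with a filter at 1 CPM in 3 libraries repeated the main values, so those could not reverse. The values of Klk5, Klk8, Klk10, Klk11 and Spink5 never reversed. Under limma-voom Klk6 was -0.14 and Klk13 -0.43, and with the hair covariate Klk7 was 0.019. With the replicate number as a block, Klk6 was -0.051, Klk13 -0.32 and Cst6 -0.021; this block called 0 members and 6 genes. With 1 library left out, Klk6 ran from -1.50 to 1.30, Klk7 from -0.20 to 0.046, Klk13 from -1.73 to 0.72, Cst6 from -0.68 to 0.62, Klk5 from 0.71 to 1.37, Klk8 from 0.29 to 0.60, Klk10 from -1.17 to -0.08, Klk11 from 0.054 to 0.46 and Spink5 from 0.13 to 0.61. The cause was not tested. Same-numbered libraries correlated at 0.63, -0.51 and 0.57 in their deviations from group means. Across genotypes, all pairs of like hair level correlated positively (0.49 to 0.70) and all others negatively (-0.72 to -0.37). Deviations within a group cancel out for each gene, so every library must have correlations of both signs across genotypes. Which pairs were positive went with the hair level, so the correlations cannot tell whether the replicate numbers pair the libraries. Over all genes, 7 were called, 39 by DESeq2, 25 by the exact test, and 4 to 10 with 1 library left out, the low value without ATR WT 2, ATR WT 3 or ATR mD/mD 1. The 6 members without overlap between hair levels were 6 with RLE scaling or with 15 hair shaft keratins alone. With 1 library left out, an alternative added after the data were seen, they were 6 to 8, while 43.8% to 46.5% of all genes showed no overlap in those divisions, against 36.7% with all libraries. The genotype difference of the log2 ratio of the kallikrein sum to Spink5 was -0.22, 0.0011 without Klk7, and -0.67 to 0.04 with 1 library left out. The 3 libraries a group, and counts as low as 11 for Klk13, limit what could be detected.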
